A study of Mus musculus with 16 samples.

Results

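Retinoid metabolism and signaling genes were examined in the epidermis of mice that differed in the supply of dietary ligands of the aryl hydrocarbon receptor (AhR) and in exposure to the allergen papain. Of the 50600 Ensembl identifiers in the count table, 9 carry the symbols chosen, and all 9 were measured. They are Rbp4, Stra6 and Crabp2 (binding and transport), Dhrs9 and Aldh1a3 (synthesis of retinoic acid), Cyp26b1 (its breakdown) and the nuclear receptors Rara, Rarg and Rxra. None of the 9 shares exonic bases with another gene in the annotation used.

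Epidermal cells of the footpad were sequenced from 16 female C57/B6J mice, 4 in each of 4 groups. From 5 wk of age the mice ate for 3 wk either the purified diet AIN-93M, which holds few AhR ligands (AhR-poor diet, SYNTH in the labels), or the same diet with 200 ppm indole-3-carbinol (I3C diet), a plant compound that gives rise to AhR ligands. Each footpad then received 50 μl of PBS, plain in the vehicle groups and holding 50 μg of the protease papain, a model allergen, in the papain groups, and the epidermis was separated with dispase 6 hr later. The mice of each diet were caged together, whence diet and cage cannot be told apart, and the 3 sequencing units of the libraries are not matched to samples in the labels. Each library is 1 mouse, named here by its code (T100 to T115), and no code is shared between groups.

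Vitamin A reaches cells as retinol, carried in blood by the protein that Rbp4 encodes and taken up through the membrane receptor encoded by Stra6. Inside the cell retinol is oxidised to retinal, and retinal to retinoic acid, which the CYP26 enzymes break down again. Retinoic acid acts on retinoic acid receptors, which bind DNA as pairs with retinoid X receptors, and in epidermis it is known for its influence on keratinocyte growth and differentiation.

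Library totals ranged from 22500821 to 51844375 counts, and 3 counts, the floor used for detection, were worth 0.0569 to 0.130 CPM (reads of a gene relative to its library's total, after TMM scaling). This floor covers counting error only. The 6 basal keratinocyte markers summed to 20644 to 36576 CPM and the 6 suprabasal ones to 18179 to 41511 CPM over the 4 groups, and none of these keratinocyte markers was at 0. Markers of other cells were also read, and moved with diet and papain: the 7 dermal fibroblast markers summed to 9.55 to 13.5 CPM on the I3C diet and 95.8 to 171 CPM on the AhR-poor diet with vehicle, and to 2.28 to 11.6 CPM and 253 to 623 CPM with papain. In these bulk samples, fewer cells of a type and less RNA per cell cannot be told apart. Across the 16 libraries the retinoid genes spanned a wide range of levels. Per kilobase of exon, the order was Crabp2 (109.4 CPM per kb), Rarg (92.4), Rxra (63.5), Rara (8.21), Cyp26b1 (2.02), Aldh1a3 (0.892), Dhrs9 (0.856), Stra6 (0.573) and Rbp4 (0.227). With the longest transcript as the length, Stra6 ranked at place 7 and Dhrs9 at place 8.

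A gene is said to have risen or fallen where edgeR's quasi-likelihood test gave a Benjamini-Hochberg adjusted p below 0.01 over the 22155 genes tested and the log2 fold change was above 1 or below -1. Papain on the AhR-poor diet moved 3 of the 9 genes, where 8.46% of all genes tested passed: Dhrs9 and Aldh1a3 rose (6.04% of all genes rose) and Stra6 fell (2.42% fell). Papain on the I3C diet also moved 3 of 9, where 8.98% of all genes passed: Dhrs9 and Crabp2 rose (3.69% of all genes rose) and Stra6 fell (5.29% fell). Between the diets, 1 of the 9 genes, Aldh1a3, was higher on the AhR-poor diet with papain (7.24% of all genes passed, 7.15% as higher and 0.0993% as lower). With vehicle no member differed between the diets (0 of 9, against 1.59% of all genes). At an unadjusted p below 0.05, which 12.5% of all genes reached, that comparison held 1 member, Cyp26b1, and the DESeq2 Wald test gave 0. The median log2 fold change of the 9 genes was -0.01 between the diets with vehicle, 0.27 between the diets with papain, 0.52 for papain on the AhR-poor diet and -0.23 for papain on the I3C diet. Over all genes tested these medians were -0.01, 0.01, -0.0044 and -0.04.

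**Figure D1:**
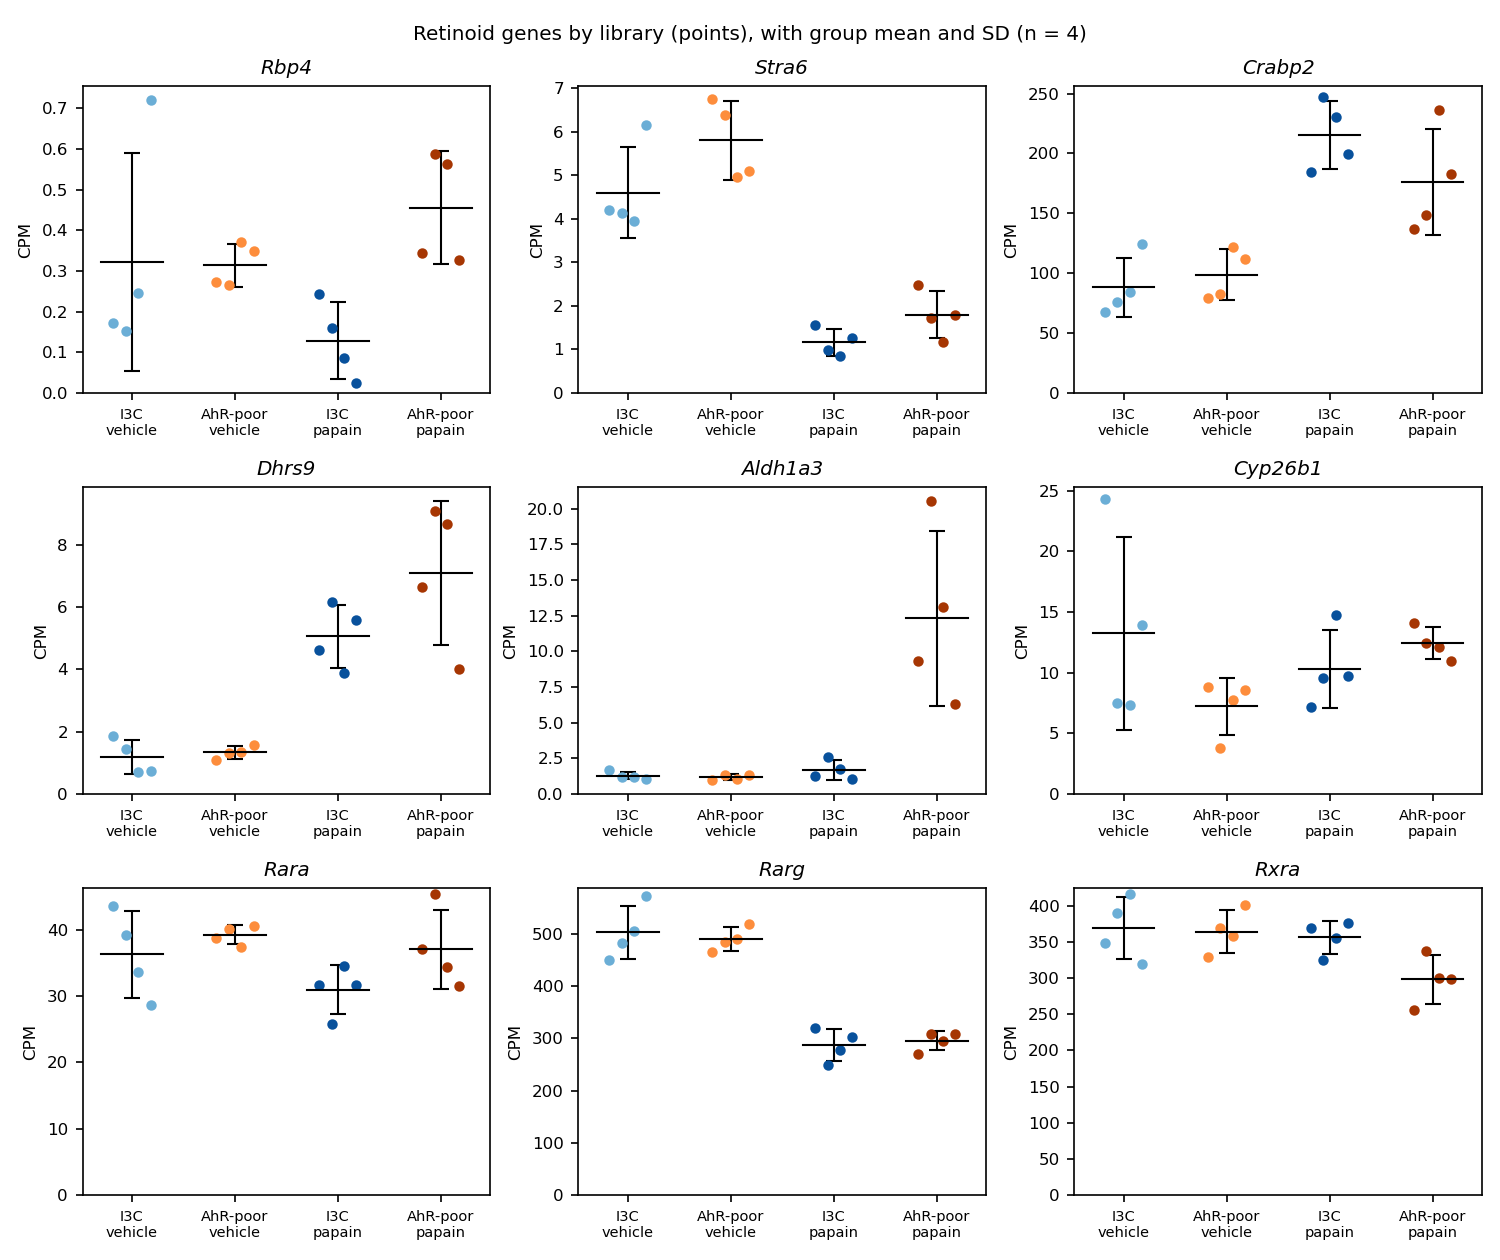
Expression of the 9 retinoid genes in CPM (vertical axes, linear from 0) for each library (points), by diet and treatment, with the mean (long bar) and SD (n = 4). Aldh1a3 stood at 6.31 to 20.5 CPM in the AhR-poor papain group and at 0.953 to 2.63 CPM in the other groups, whereas Dhrs9, Stra6, Crabp2 and Rarg separated papain from vehicle on both diets. Separation of this kind was not counted over all genes. At an edgeR adjusted p below 0.01 with any fold change, 22.5% (AhR-poor diet) and 25.7% (I3C diet) of all genes passed for papain.

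Aldh1a3 (ENSMUSG00000015134, chr7:66390890-66427517, GRCm38, minus strand) encodes an enzyme that oxidises retinal to retinoic acid. With vehicle, its level was 0.953, 1.35, 1.06 and 1.34 CPM in the 4 AhR-poor libraries and 1.67, 1.198, 1.22 and 1.08 CPM in the 4 I3C libraries. With papain, it was 9.36, 20.5, 13.1 and 6.31 CPM on the AhR-poor diet and 1.24, 2.63, 1.74 and 1.07 CPM on the I3C diet. Every AhR-poor papain library was above every other library, and the other 3 groups overlapped. The group mean with papain on the AhR-poor diet was 12.3 ± 6.14 CPM (SD, n = 4), 10.5 times that with vehicle on this diet (1.18 ± 0.200) and 7.38 times that with papain on the I3C diet (1.67 ± 0.700). On the log2 scale Aldh1a3 rose by 3.39 with papain on the AhR-poor diet (SE 0.34, edgeR adjusted p = 1.07e-06), and with papain the AhR-poor diet exceeded the I3C diet by 2.90 (SE 0.33, edgeR adjusted p = 9.57e-06). Both results share the AhR-poor papain libraries. The exact two-sided permutation test of 4 libraries against 4 gave p = 0.0286 for each, the smallest it allows. On the I3C diet the papain difference was 0.36 (SE 0.34, edgeR adjusted p = 0.465, 95% interval -0.36 to 1.08), and between the diets with vehicle it was -0.13 (SE 0.35, edgeR adjusted p = 0.949).

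The difference between the papain responses of Aldh1a3 on both diets was itself tested. The interaction was 3.03 on the log2 scale (SE 0.47, 95% interval 2.03 to 4.04), with an edgeR adjusted p of 0.0128, above the threshold of 0.01. By that threshold 0 of the 9 genes passed the interaction test, in which 0.0181% of all genes did. At an unadjusted p below 0.05, which 13.5% of all genes reached, it held 3 members (Aldh1a3, Rbp4 and Cyp26b1), and DESeq2 passed 1, Aldh1a3. The interaction estimates of the other 8 genes lay between -0.45 (Crabp2) and 1.81 (Rbp4), with edgeR adjusted p from 0.300 to 0.827.

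Markers of some other cells moved with Aldh1a3. Among the AhR-poor papain libraries, T112 had the lowest Aldh1a3 (6.31 CPM) and also the lowest sums of the 7 fibroblast markers (253 CPM), the 6 monocyte and macrophage markers (111.7 CPM) and the 5 neutrophil markers (37.6 CPM). T105 had the highest Aldh1a3 (20.5 CPM) and the highest of the same sums (623, 520 and 176 CPM). The 4 libraries stood in one order by Aldh1a3 and by each of these sums and that of T cells, which is 4 of the 13 marker lists read. The other 9 stood in another order: the endothelial sum was lowest in T107 (22.1 CPM, with 57.3 CPM in T105), and the Langerhans cell sum was highest in T104 (759 CPM, with 666 CPM in T105). Between other groups these markers differed while Aldh1a3 overlapped. With vehicle the fibroblast sum was 95.8 to 171 CPM on the AhR-poor diet and 9.55 to 13.5 CPM on the I3C diet, with Aldh1a3 at 0.953 to 1.35 and 1.08 to 1.67 CPM. The neutrophil sum on the I3C diet was 0.517 to 0.952 CPM with vehicle and 20.1 to 29.5 CPM with papain, with Aldh1a3 at 1.08 to 1.67 and 1.07 to 2.63 CPM. Monocyte and macrophage sums were 48.5 to 59.0 and 19.4 to 28.4 CPM with vehicle (AhR-poor and I3C diet), and 111.7 to 520 and 11.3 to 38.0 CPM with papain. Ly6g was at 0 in 3 groups and Mmp8 in the I3C vehicle group, and no fibroblast or monocyte marker was at 0 throughout a group. Between the diets with papain, 7 of 7 fibroblast, 6 of 6 monocyte and macrophage and 3 of 5 neutrophil markers were higher on the AhR-poor diet. So were 6 of 6 endothelial, 4 of 4 melanocyte, 2 of 3 adipocyte and 2 of 2 skeletal muscle markers tested. The count was 1 of 4 for T cells, 1 of 3 for Schwann cells, and 0 for Langerhans cells, sweat glands and keratinocytes. Over all genes, 7.15% were higher. A count of 0 does not show equal levels: the Langerhans cell sums of the 2 diets did not overlap. With papain they were 590 to 759 CPM (AhR-poor) and 156 to 487 CPM (I3C). With vehicle they were 608 to 683 CPM and 150 to 378 CPM. The part of these cells in the Aldh1a3 result was not tested.

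**Figure D2:**
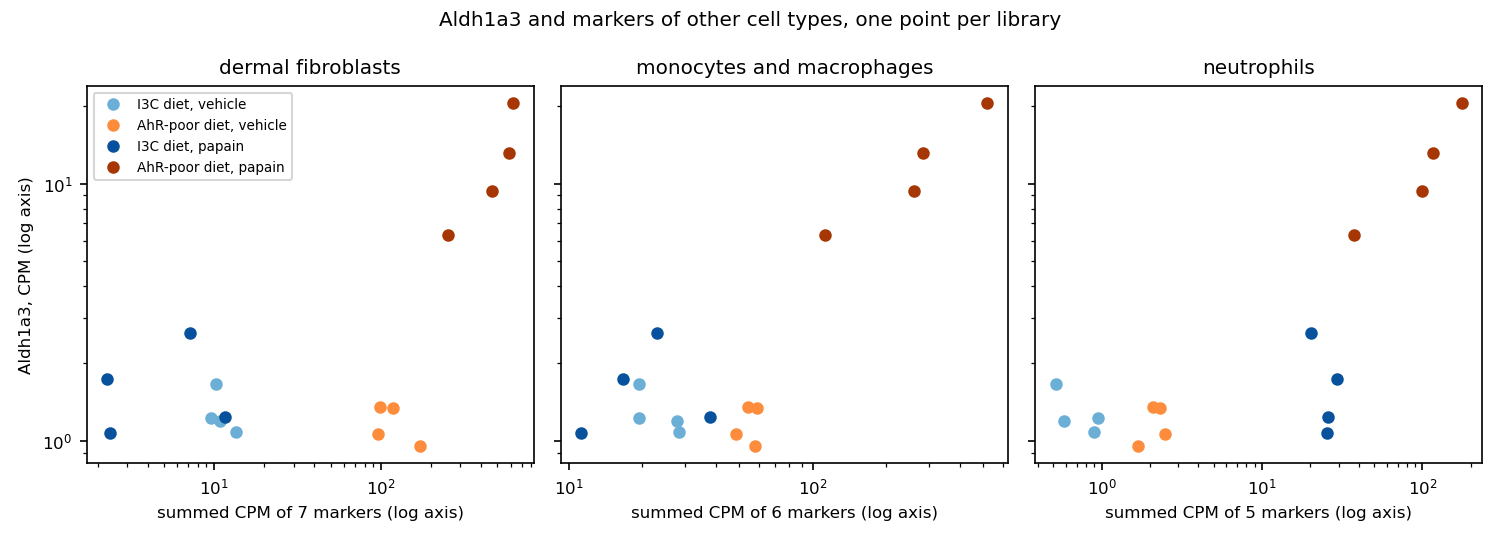
Aldh1a3 in CPM (vertical, log axis) against the summed CPM of markers of dermal fibroblasts, monocytes and macrophages, and neutrophils (horizontal, log axes), 1 point per library coloured by group. The lists drawn are among the 4 of 13 marker lists that put the AhR-poor papain libraries in the order of Aldh1a3. The other lists are not drawn. On these panels the 4 AhR-poor papain libraries rise together from 6.31 to 20.5 CPM, while the AhR-poor vehicle libraries have fibroblast sums of 95.8 to 171 CPM with Aldh1a3 at 0.953 to 1.35 CPM.

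Of the other aldehyde dehydrogenases that make retinoic acid, Aldh1a2 passed in the same comparisons as Aldh1a3, at a lower level, and Aldh1a1 did not. Aldh1a2 was nearly unread outside the AhR-poor papain group, with 0 to 1 count per library for I3C vehicle, 1 to 3 counts for I3C papain and 2 to 6 counts for AhR-poor vehicle. With papain on the AhR-poor diet it reached 1.90, 1.80, 2.51 and 0.789 CPM, or 29 to 95 counts. It rose by 4.09 on the log2 scale with papain on that diet (SE 0.45, edgeR adjusted p = 1.62e-06) and was higher than on the I3C diet with papain (edgeR adjusted p = 2.23e-06). No fold is given against the I3C libraries, which were at or under the floor. Fibroblast marker sums differed between the same papain groups (253 to 623 CPM on the AhR-poor and 2.28 to 11.6 CPM on the I3C diet). Monocyte and macrophage, endothelial and neutrophil sums differed between them too. Among the AhR-poor papain libraries, Aldh1a2 was highest in T107 (2.51 CPM) and the fibroblast sum in T105 (623 CPM). Both were lowest in T112 (0.789 and 253 CPM). The part of other cells in the Aldh1a2 result was not tested. Aldh1a1 went the other way and was lower with papain on both diets. Its mean fell on the I3C diet from 2.42 ± 0.474 to 0.992 ± 0.306 CPM (log2 -1.29, SE 0.24, edgeR adjusted p = 2.78e-04). On the AhR-poor diet it was 2.45 ± 0.316 CPM with vehicle and 1.24 ± 0.280 CPM with papain (log2 -0.98, edgeR adjusted p = 0.00307), just short of the fold minimum, which it passed when T101, T103, T104 or T105 was left out (log2 -1.01 to -1.07). Reads of Aldh1a1 may be shared with its close paralog Aldh1a7, depending on a counting step that is not given in the sources used here.

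Dhrs9 (ENSMUSG00000027068, chr2:69380445-69404533, GRCm38, plus strand) encodes a short-chain dehydrogenase that oxidises retinol to retinal. It was at 1.09, 1.32, 1.36 and 1.58 CPM in the AhR-poor vehicle libraries and at 1.87, 1.43, 0.707 and 0.750 CPM in the I3C vehicle libraries. Papain libraries were at 6.62, 9.07, 8.66 and 3.997 CPM on the AhR-poor diet and at 4.603, 6.16, 3.88 and 5.57 CPM on the I3C diet. All papain libraries were above all vehicle libraries, and the diets overlapped within each treatment. With papain Dhrs9 rose by 2.40 (log2) on the AhR-poor diet (SE 0.29, edgeR adjusted p = 6.15e-06) and by 2.08 on the I3C diet (SE 0.30, edgeR adjusted p = 1.95e-05), or 5.29-fold and 4.25-fold as ratios of the mean CPM. The responses differed by 0.32 (95% interval -0.55 to 1.18, edgeR adjusted p = 0.782), so a difference of up to about 1 log2 unit between the diets is within the error. Between the diets, Dhrs9 was 0.17 (SE 0.31) apart with vehicle and 0.49 (SE 0.27) with papain, neither past the threshold.

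Promoter windows of 300 bases, 250 before and 50 after each start site, were read from RefSeq (GRCm38.p6) for 7 of the 9 genes, which have 16 windows in all. No window was used for Crabp2 and Aldh1a3. Windows were searched on both strands for GCGTG, the core of the AhR response element, for TGAGTCA, the AP-1 consensus, and for direct repeats of retinoic acid receptor half-sites (AGGTCA and also AGTTCA, and the forms GGGTCA and likewise GGTTCA, any pair of them on one strand with 1, 2 or 5 bases between). Shown are the windows of the genes whose level with papain stood apart from vehicle on both diets, with matched letters in capitals. For Stra6 the first of its 4 windows is shown, and for Rarg both. They lie at chr2:69380212-69380511 (plus strand, Dhrs9), chr9:58128838-58129137 (plus strand, Stra6), chr15:102257473-102257772 and chr15:102246451-102246750 (minus strand, Rarg).
Dhrs9: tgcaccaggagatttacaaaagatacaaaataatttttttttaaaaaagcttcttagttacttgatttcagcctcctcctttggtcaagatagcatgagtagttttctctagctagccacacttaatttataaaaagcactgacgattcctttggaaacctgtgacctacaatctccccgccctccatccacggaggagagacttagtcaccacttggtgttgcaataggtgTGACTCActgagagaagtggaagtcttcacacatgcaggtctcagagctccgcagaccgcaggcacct
Stra6: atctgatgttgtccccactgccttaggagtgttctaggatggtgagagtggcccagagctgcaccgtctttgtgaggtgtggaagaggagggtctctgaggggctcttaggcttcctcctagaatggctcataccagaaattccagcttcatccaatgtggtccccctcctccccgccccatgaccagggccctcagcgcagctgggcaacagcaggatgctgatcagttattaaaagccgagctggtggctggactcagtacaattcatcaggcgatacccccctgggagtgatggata
Rarg, upstream start: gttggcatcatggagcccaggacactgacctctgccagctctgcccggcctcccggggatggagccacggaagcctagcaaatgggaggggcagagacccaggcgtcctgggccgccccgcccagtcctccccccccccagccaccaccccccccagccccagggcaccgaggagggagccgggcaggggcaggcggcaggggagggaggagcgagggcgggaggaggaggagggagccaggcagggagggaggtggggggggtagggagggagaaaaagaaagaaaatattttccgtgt
Rarg, downstream start: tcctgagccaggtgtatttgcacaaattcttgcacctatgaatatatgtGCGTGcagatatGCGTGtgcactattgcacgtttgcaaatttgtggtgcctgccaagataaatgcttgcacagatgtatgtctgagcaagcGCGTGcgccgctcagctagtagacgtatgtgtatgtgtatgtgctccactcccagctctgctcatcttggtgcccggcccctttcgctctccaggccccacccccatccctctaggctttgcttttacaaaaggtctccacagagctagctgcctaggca
The Dhrs9 window holds TGAGTCA on the reverse strand at 18 to 12 bases before the start, a motif found in 5.20% of 32851 windows. Rbp4 has the same motif in 1 of its windows. The downstream Rarg window holds GCGTG 3 times, and windows of Rbp4 and Rara also hold it. At least 1 match is found in 32.4% of all windows, and how many hold 3 was not counted. None of the 16 windows holds a direct repeat, which 0.588% of all windows do. These are letter matches in short windows, not evidence of binding.

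Stra6 (ENSMUSG00000032327, chr9:58063788-58153996, GRCm38, plus strand), the retinol uptake receptor, fell on both diets, the only one of the 9 genes to pass both thresholds downward. It was at 6.76, 6.38, 4.97 and 5.10 CPM in AhR-poor vehicle libraries and at 4.19, 4.13, 3.94 and 6.15 CPM in I3C vehicle libraries. Papain libraries were at 2.49, 1.73, 1.17 and 1.79 CPM on the AhR-poor diet and at 1.56, 0.994, 0.856 and 1.27 CPM on the I3C diet. No papain library reached the lowest vehicle library. Stra6 changed by -1.67 (log2) on the AhR-poor diet (SE 0.23, edgeR adjusted p = 1.57e-05) and by -1.96 on the I3C diet (SE 0.24, edgeR adjusted p = 2.44e-06), so that the papain mean was 0.309 and 0.254 times the vehicle mean. The interaction was 0.29 (95% interval -0.39 to 0.97). With papain the AhR-poor libraries averaged 1.79 ± 0.540 CPM and the I3C libraries 1.17 ± 0.311 CPM, which overlapped (log2 0.62, SE 0.24, edgeR adjusted p = 0.0742).

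Crabp2 (ENSMUSG00000004885, chr3:87948666-87953376, GRCm38, plus strand) encodes the cytosolic protein that carries retinoic acid to its receptors, and had the highest level per kilobase of the 9 genes. With vehicle it was at 79.0, 82.4, 122 and 112.2 CPM on the AhR-poor diet and at 68.0, 76.3, 84.7 and 124 CPM on the I3C diet. With papain it was at 137, 149, 236 and 183 CPM on the AhR-poor diet and at 184, 247, 230 and 200 CPM on the I3C diet. All papain libraries were above all vehicle libraries. Crabp2 rose by 1.29 on the I3C diet (SE 0.21, edgeR adjusted p = 1.96e-04), 2.44-fold in mean CPM. On the AhR-poor diet it was 0.83 higher (SE 0.21, edgeR adjusted p = 0.00632), 1.78-fold, which passed the p threshold and not the fold minimum. Passing on one diet and not on the other does not show a difference: the interaction was -0.45 (95% interval -1.08 to 0.17, edgeR adjusted p = 0.529).

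Rbp4 (ENSMUSG00000024990, chr19:38116629-38125281, GRCm38, minus strand), the retinol carrier, was close to the limit of detection, with 1 to 31 counts per library. It was at 0.272, 0.265, 0.371 and 0.349 CPM in AhR-poor vehicle libraries and at 0.172, 0.153, 0.245 and 0.720 CPM in I3C vehicle libraries. With papain it was at 0.345, 0.588, 0.563 and 0.326 CPM on the AhR-poor diet and at 0.244, 0.160, 0.086 and 0.025 CPM on the I3C diet. The papain groups did not overlap, and the mean ratio between them was 3.54. The difference of 1.79 on the log2 scale (SE 0.54, 95% interval 0.68 to 2.96) had an edgeR adjusted p of 0.0227, above the threshold of 0.01. It passed when I3C vehicle library T111 was left out (edgeR adjusted p = 0.00702), which enters through the shared estimate of spread, and when I3C papain library T106 was (edgeR adjusted p = 0.00911). Against vehicle, the papain difference was 0.52 (SE 0.48) on the AhR-poor diet and -1.28 (SE 0.57, edgeR adjusted p = 0.0830) on the I3C diet. Their interaction was 1.81 (SE 0.74, edgeR adjusted p = 0.300).

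Cyp26b1 (ENSMUSG00000063415, chr6:84571414-84593908, GRCm38, minus strand) encodes a cytochrome P450 that breaks down retinoic acid. With vehicle it was at 8.85, 3.76, 7.76 and 8.58 CPM on the AhR-poor diet and at 24.3, 7.52, 7.32 and 13.9 CPM on the I3C diet. With papain it was at 14.1, 12.5, 12.2 and 10.96 CPM on the AhR-poor diet and at 7.16, 9.59, 14.8 and 9.77 CPM on the I3C diet. On the AhR-poor diet every papain library was above every vehicle library, with a mean ratio of 1.72. The test across genes gave 0.78 for this difference (SE 0.37, edgeR adjusted p = 0.122), and -0.36 (SE 0.36, edgeR adjusted p = 0.490) for papain on the I3C diet. Between the diets with vehicle it was -0.87 (SE 0.37, edgeR adjusted p = 0.324), where library T108 alone stood at 24.3 CPM. The other CYP26 genes, Cyp26a1 and Cyp26c1, had too few counts to be tested, and Cyp26a1 had at most 3 counts in any library.

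Among the receptors, Rarg stood lower with papain on both diets while Rara and Rxra moved less. Rarg (ENSMUSG00000001288, chr15:102234938-102257517, GRCm38, minus strand) encodes retinoic acid receptor gamma, the main such receptor of epidermis. With vehicle it was at 465, 484, 490 and 520 CPM on the AhR-poor diet and at 450, 484, 506 and 572 CPM on the I3C diet. Papain libraries were at 270, 308, 294 and 309 CPM on the AhR-poor diet and at 320, 249.2, 278 and 303 CPM on the I3C diet. The treatments did not overlap on either diet. The difference was -0.73 on the AhR-poor diet (SE 0.09, edgeR adjusted p = 4.01e-06) and -0.81 on the I3C diet (SE 0.09, edgeR adjusted p = 6.65e-07), or 0.603 and 0.572 times the vehicle mean. Both passed the p threshold and neither the fold minimum. At an adjusted p below 0.01 with any fold change, 22.5% and 25.7% of all genes passed in these comparisons. The responses differed by 0.08 (95% interval -0.18 to 0.33), and the diets by -0.04 (SE 0.09) with vehicle and 0.04 (SE 0.09) with papain.

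Rara (ENSMUSG00000037992, chr11:98927818-98974942, GRCm38, plus strand), retinoic acid receptor alpha, ranged from 25.8 to 45.3 CPM over all libraries. Its groups overlapped except for AhR-poor vehicle (37.4 to 40.5 CPM) and I3C papain (25.8 to 34.5 CPM). Its differences lay between -0.23 (papain on the I3C diet, SE 0.12) and 0.26 (diets with papain, SE 0.12, edgeR adjusted p = 0.153). Rxra (ENSMUSG00000015846, chr2:27676440-27762957, GRCm38, plus strand), the retinoid X receptor that pairs with both, ranged from 255 to 416 CPM. It averaged 298 ± 33.9 CPM with papain on the AhR-poor diet, against 364 ± 29.7 CPM with vehicle on that diet and 357 ± 22.7 CPM with papain on the I3C diet, and these groups overlapped. The papain difference on the AhR-poor diet was -0.29 (SE 0.09, edgeR adjusted p = 0.0240), and on the I3C diet it was -0.05 (SE 0.09).

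**Figure D3:**
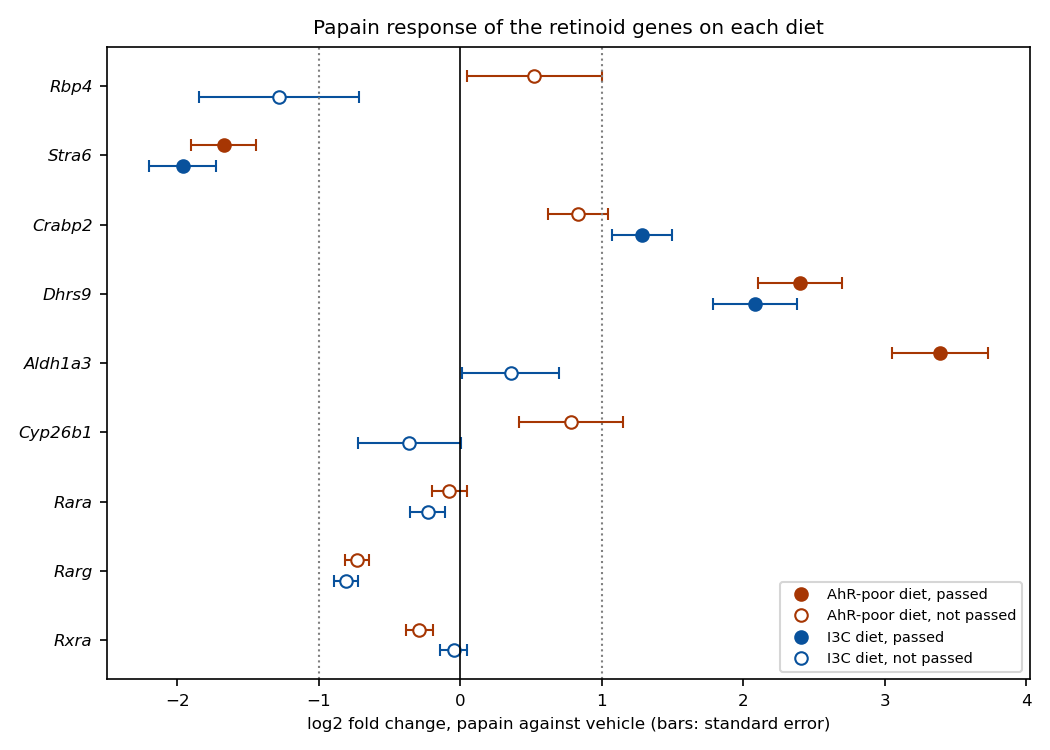
Log2 fold change of papain against vehicle (horizontal, bars are standard errors) for the 9 retinoid genes (vertical) on the AhR-poor diet (brown) and the I3C diet (blue), filled where both thresholds were passed, with dotted lines at -1 and 1. Aldh1a3 is at 3.39 and 0.36, whereas Dhrs9 is at 2.40 and 2.08, Stra6 at -1.67 and -1.96 and Rarg at -0.73 and -0.81.

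The remaining genes of the pathway were read from a list of 43, of which 37 had enough counts to be tested. Papain on the AhR-poor diet raised 4 of the 37 (Fabp5, Dgat1, Rdh16 and Aldh1a2) and lowered 1 (Bco1). On the I3C diet it raised 3 (Fabp5, Scarb1 and Rdh16) and lowered 4 (Adh1, Adh7, Aldh1a1 and Bco1). Those shares, 13.5% and 18.9%, stand beside 8.46% and 8.98% of all genes. Between the diets, 1 of 37 was higher on the AhR-poor diet with vehicle (Awat2) and 3 with papain (Awat2, Adh1 and Aldh1a2), or 2.70% and 8.11% beside 1.59% and 7.24%. By edgeR 0 of the 37 passed the interaction test (8 had an unadjusted p below 0.05), and by DESeq2 1 did, Adh7.

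Of the 13 tested list genes that interconvert retinol and retinal, 12 did not pass for papain on the AhR-poor diet and 10 on the I3C diet. Those that passed on the I3C diet moved in different directions. Rdh16, a retinol dehydrogenase like Dhrs9, rose by 1.39 on the AhR-poor diet and by 2.01 on the I3C diet (papain means of 6.61 ± 1.72 and 6.06 ± 1.62 CPM). It shares 381 exonic bases with Rdh18-ps, so its reads are less certain. The alcohol dehydrogenases that can also oxidise retinol did not rise. Adh7 fell by 1.99 on the I3C diet, from 126 ± 20.1 to 31.6 ± 3.82 CPM, and was at -0.82 on the AhR-poor diet. Adh1 fell by 1.38 on the I3C diet, from 19.5 ± 5.28 to 7.46 ± 2.07 CPM, was at -0.57 on the AhR-poor diet, and with papain the AhR-poor diet exceeded the I3C diet by 1.48. Both Adh genes overlap antisense genes (Adh1 by 136 exonic bases, Adh7 by fewer). Bco1, which cleaves beta-carotene to retinal, fell by 2.67 on the AhR-poor diet (3.09 ± 0.496 to 0.512 ± 0.329 CPM) and by 3.75 on the I3C diet (3.66 ± 0.145 to 0.264 ± 0.0840 CPM).

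Fabp5, a fatty acid binding protein that can also deliver retinoic acid to nuclear receptors, rose by 1.23 on the AhR-poor diet and by 1.88 on the I3C diet, the direction of Crabp2 on the latter. Its reads may be shared with near-identical copies. Scarb1, a lipoprotein receptor that takes up carotenoids, rose by 1.27 on the I3C diet and was at 0.95 on the AhR-poor diet. Of the enzymes that store retinol as esters, Dgat1 rose by 1.08 on the AhR-poor diet (0.97, short of the fold minimum, without T105) and was at 0.59 on the I3C diet. Awat2 was higher on the AhR-poor diet with vehicle (4.16 ± 1.12 against 1.46 ± 0.535 CPM, log2 1.51) and with papain (3.67 ± 0.868 against 1.19 ± 0.101 CPM, log2 1.62). Markers of other cells also differed between the diets, and their part in the Awat2 and Adh1 differences was not tested.

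**Figure D4:**
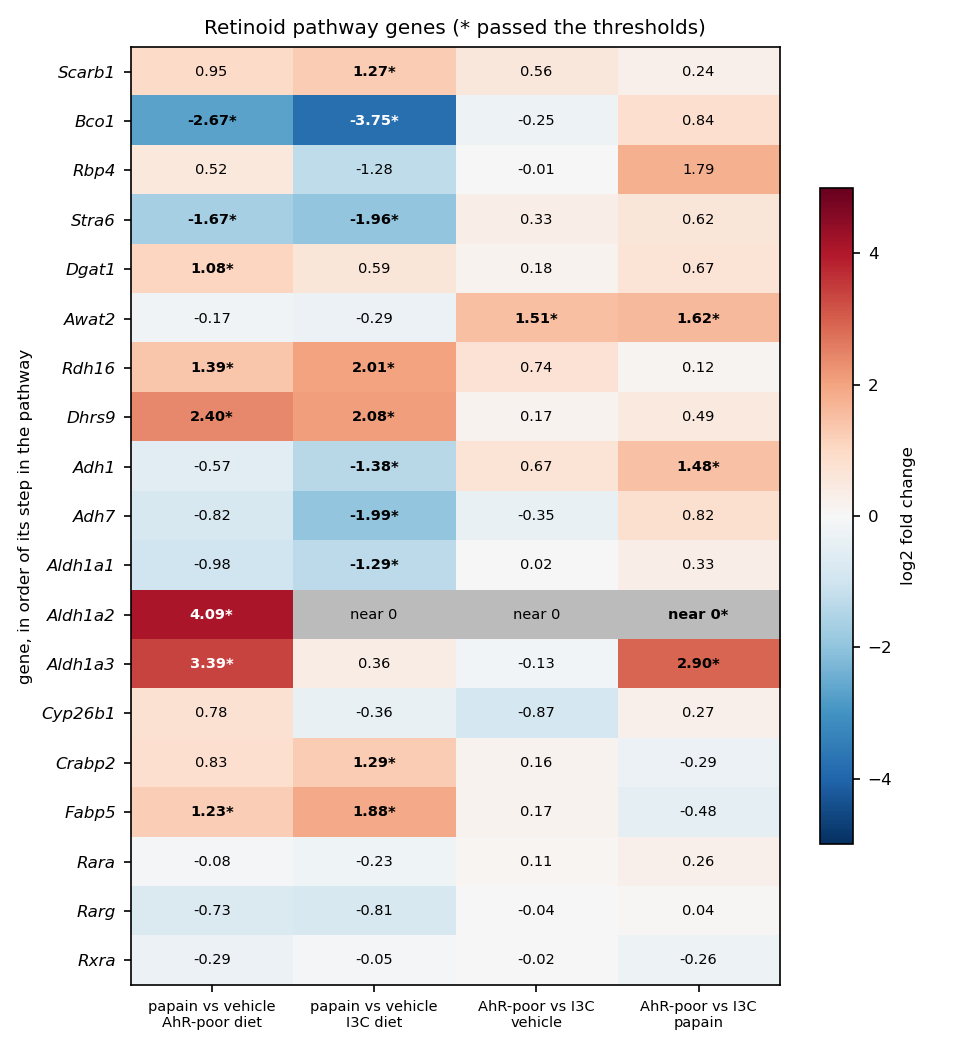
Log2 fold changes (colour and printed value) in 4 comparisons (columns) of the 9 retinoid genes and the 10 listed pathway genes that passed in at least 1 of them (rows), with an asterisk where both thresholds were passed. Grey cells marked near 0 are comparisons against libraries with at most 3 counts, and the Dhrs9 and Rdh16 rows are raised by papain while Adh1, Adh7, Aldh1a1 and Bco1 are below 0 on both diets.

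Genes known to be induced by retinoic acid were read from a list of 12, of which 11 were tested and which includes Stra6, Crabp2 and Cyp26b1. With papain on the AhR-poor diet 2 rose (Rarres2 and Tgm2) and 2 fell (Stra6 and Rarres1), and on the I3C diet 1 rose (Crabp2) and 2 fell (Stra6 and Rarres1). These shares of 36.4% and 27.3% stand beside 8.46% and 8.98% of all genes, and the list holds members chosen with these data known. Rarres1 changed by -1.17 and -1.52. Tgm2, a transglutaminase, was at 64.8 ± 38.0 CPM with papain on the AhR-poor diet, 7.49 ± 2.30 CPM with vehicle on that diet, and 1.63 ± 1.97 CPM with papain on the I3C diet. Rarres2, which encodes the chemoattractant chemerin, was at 2.08 ± 0.874 CPM with papain and 0.519 ± 0.330 CPM with vehicle on the AhR-poor diet, and at 0.0278 ± 0.0323 CPM with vehicle on the I3C diet, where no library had over 2 counts. Both passed between the diets with papain (log2 5.28 for Tgm2 and 4.76 for Rarres2). Rarres2 averaged 0.0703 CPM in the I3C papain group and 0.0451 CPM without T106. These levels are close to the floor, so the size of its fold is uncertain. I3C papain library T106 alone held Tgm2 at 4.55 CPM, and without it the I3C papain mean of Tgm2 was 0.654 CPM. The diet differences of Tgm2 and Rarres2 were then 6.67 and 5.39. T106 also had the highest fibroblast (11.6 CPM), monocyte and macrophage (38.0 CPM) and Langerhans cell (487 CPM) marker sums of the I3C papain libraries. Its neutrophil sum (25.7 CPM) was below that of T114 (29.5 CPM). Rarres2 also passed with vehicle, but not without T108 or T110 (edgeR adjusted p = 0.0123 and 0.0125), and Tgm2 passed there without T106 (edgeR adjusted p = 0.00610). Both overlap genes on the other strand (Tgm2 by 1003 and Rarres2 by 892 exonic bases). The means of Tgm2, Rarres2 and the fibroblast sum were all larger on the AhR-poor diet, and there larger with papain than with vehicle. On the I3C diet the mean fibroblast sum was smaller with papain (5.85 CPM) than with vehicle (11.05 CPM). Tgm2 averaged 1.63 CPM there with papain (0.654 CPM without T106) and 1.18 CPM with vehicle. Rarres2 averaged 0.0703 and 0.0278 CPM, close to the floor. The part of fibroblasts in these levels was not tested. The median log2 fold change of the 11 genes was 0.08 and 0.15 for papain on the AhR-poor and the I3C diet, beside -0.0044 and -0.04 over all genes.

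Of 10 nuclear receptors that also pair with RXR, Ppara, a regulator of fatty acid oxidation, fell with papain on both diets (log2 -1.24 on the AhR-poor and -1.75 on the I3C diet). Nr4a1 fell by 1.14 on the I3C diet (0.83 and short of the fold minimum without T108) and was at -0.61 on the AhR-poor diet. Pparg was higher on the AhR-poor diet with papain (5.11 ± 0.917 against 0.641 ± 0.811 CPM, log2 2.94). The part of other cells in this difference was not tested. T106, whose marker sums are given above, alone held 1.85 CPM of Pparg in the I3C papain group. The mean of that group was 0.237 CPM without T106, with a diet difference of 4.39. Without T106 Pparg also passed between the diets with vehicle and as lower with papain on the I3C diet (log2 -2.37), and without T115 the diet difference with papain did not pass (edgeR adjusted p = 0.0131). For papain 1 of 10 passed on the AhR-poor diet and 2 of 10 on the I3C diet, beside 8.46% and 8.98% of all genes. Between the diets with papain 1 of 10 passed, beside 7.24% of all genes. At an unadjusted p below 0.05 (edgeR) these 3 comparisons held 6, 5 and 8 of the 10, a share not counted over all genes. By edgeR 0 of the 10 passed between the diets with vehicle (1 had an unadjusted p below 0.05, and DESeq2 passed 1, Pparg), and 0 in the interaction test (3 had an unadjusted p below 0.05, and DESeq2 passed 0).

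The genes whose levels were most like each member over the 16 libraries were found by Pearson's r of log2(CPM + 0.5) among 13026 genes. These libraries share groups, so r describes the pattern only. Aldh1a3 was most like Cxcl5, Ms4a4c and F10 (r = 0.97 each), and Dhrs9 like Areg, Rab8b and Efhd2 (0.96, 0.96 and 0.96). Stra6 was most like Nmnat3, Dusp23 and Cryl1 (0.97 each), Crabp2 like Bod1 and Gm49322 (0.97 each), and Rarg like Cds1, Efs and Xpa (0.99 each). Arrb2 and Nupr1 were among the genes most like Rbp4 (0.84 each). The closest were for Cyp26b1 Cdk9, Casp4 and Phf23 (0.89 each), for Rara Iqsec1, Dab1 and Kif21b (0.83 to 0.81), and for Rxra Dip2a, Acsl1 and Cog4 (0.95, 0.95 and 0.95).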

How the data were processed

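Gene expression was measured by RNA-seq in epidermal cells of 16 mice. The authors made libraries with the TruSeq Stranded mRNA kit, aligned reads with STAR to mm10 and deposited raw counts per Ensembl gene and library, without normalization. The counting tool, annotation and strand setting are not given in the sources used here. The submitters' processing notes also name FastQC and DESeq2.

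Groups came from the labels. Symbols, positions and exon lengths were taken from GENCODE M21 (GRCm38, the assembly of mm10), and 50376 of 50600 identifiers had a symbol. Genes under 10 counts over all libraries were dropped. Counts were scaled with TMM factors (0.937 to 1.07), and one mean per group was fitted to all 16 libraries with edgeR 4.0.16 (robust quasi-likelihood F test, R 4.3.3), with Benjamini-Hochberg adjustment over 22155 genes. The fit was tested on simulated data. Two-sided exact permutation tests used log2(CPM + 0.01). Replicates are separate mice, and the labels do not say how else they differ. Alternatives were RLE factors, library size only, other count filters, DESeq2 1.42.0, only the 8 libraries compared, other thresholds, and leaving out each library.

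The members and lists were chosen with earlier results of these data known. From the lists, genes were named where they passed in at least 1 of the 4 comparisons with a group mean of at least 1 CPM. Of the genes most like each member, 2 are not reported here.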

Additional observations from a re-analysis of the deposited data

Results flagged for a closer look

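The papain response of Aldh1a3 differed between the diets by 3.03 on the log2 scale in the interaction test (edgeR adjusted p = 0.0128, higher with papain in 4 of 4 AhR-poor libraries than in all others). Over the alternatives the value ranged from 2.66 to 3.34 and the adjusted p from 1.92e-07 (DESeq2) to 0.0523 (edgeR, without I3C vehicle library T108).

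Among the I3C vehicle libraries, T111 lay far from the others for Rbp4 (0.720 CPM, next 0.245, lowest 0.153) and for Stra6 (6.15 CPM, next 4.19, lowest 3.94). Its gap to the nearest library was 0.838 and 0.888 of the group's range. In all, 2 of 36 groups of 4 libraries were singled out in this way, and chance singles out about 1 in 20.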

How the results depend on the processing

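The log2 fold changes of the 9 genes were recomputed under each alternative, 1111 values in all. Of these, 1100 stayed on the same side of the thresholds, with a change of sign only among values that had not passed, and 11 newly passed. The 7 results that passed did so in all 175 recomputations. Where only a threshold was loosened (adjusted p below 0.05 or no minimum fold change), a result that had passed could not fail. The count between the diets with papain was 1 and became 2 at an adjusted p below 0.05 (Rbp4, with 2109 higher and 70 lower over all genes), and 1 to 2 when each library was left out (2 without T111 or T106). The interaction count was 0 and became 1 (Aldh1a3) with library size only, with DESeq2 and at an adjusted p below 0.05, and 0 to 1 when each library was left out (1 without T112 or T113). The count for papain on the AhR-poor diet was 3 and became 5 without a minimum fold change (Crabp2 and Rarg added), and on the I3C diet it went from 3 to 4 (Rarg added). Ranks by level per kilobase moved for Stra6 and Dhrs9 with transcript length.

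Over all genes, the diet comparison with vehicle gave 352 calls, 58 when every library needed 10 counts, 595 higher and 6 lower with DESeq2, and 582 and 5 at an adjusted p below 0.05. The interaction gave 4 calls, 200 higher and 5 lower with DESeq2, 60 and 3 at an adjusted p below 0.05, 10 with library size only and 7 with every gene read at least once. Leaving out 1 library gave 2 to 95 higher in the interaction (95 without T112, 30 without T106, 15 without T100, and 2 without T101, T102, T104, T108, T114 or T115), and 193 to 430 between the diets with vehicle (193 without T110, 195 without T108, 209 without T100 or T109, 233 with 2 lower without T111). Among other listed genes, checked after the data were seen, calls were also gained by Rbp2 (papain on the I3C diet, without T106, T110, T111 or T113), Scarb1 and Lrat (papain on the AhR-poor diet, without T100 and T102), and Rdh1 and Rarres1 (diets with papain, without T106). Rbp4 was not testable under the 10-count filter. Library size alone moved the median of all genes between the diets with papain from 0.01 to 0.11. No paired analysis was possible because no replicate code is shared between groups. Rbp4 and Aldh1a2 are limited by depth.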
